A study of Mus musculus with 13 samples.

Results

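The genes of 9 giant sarcomere and Z-disc proteins, Ttn, Neb, Myom1, Myom2, Myom3, Nrap, Fhl1, Fhl3 and Ldb3, were followed in mouse gastrocnemius muscle. They were taken by symbol as 9 of the 21868 genes in the table of normalized counts. All 9 were among the 12303 genes with a mean normalized count of at least 10 over the 13 mice, which were the genes tested. The mice were male C57BL/6 mice in the labels (C57BL/6N in the study), 7 weeks old at the start, fed a diet of 60 kcal% fat over 15 to 17 weeks and then moved to chow. For 3 weeks, 5 mice received vehicle (phosphate-buffered saline), 5 received intraperitoneal semaglutide at 30 nM/kg/day, and 3 received the same dose of semaglutide together with a ketone ester at 0.114 g/mL in the water they drank. Semaglutide is an agonist of the glucagon-like peptide-1 receptor, and the ketone ester raises the ketone body β-hydroxybutyrate in blood. The question was how each treatment changed muscle transcripts, with vehicle-treated mice as the control for semaglutide and semaglutide-treated mice as the control for the ketone ester. There was no group given the ketone ester without semaglutide.

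The sarcomere is the repeating contractile unit of striated muscle, with thin actin filaments anchored in the Z-disc and thick myosin filaments held in register at the M-band. Titin (Ttn) runs from the Z-disc to the M-band as a molecular spring, and nebulin (Neb) lies along the thin filament. Myomesins (Myom1, Myom2 and Myom3) cross-link myosin filaments at the M-band. The nebulin-related anchoring protein (Nrap) is an actin-binding LIM protein of myofibril assembly and of muscle-tendon and intercalated disc attachments. Fhl1 and Fhl3 are four-and-a-half-LIM-domain proteins, adaptors that bind sarcomeric and nuclear partners, and Ldb3, also called ZASP or Cypher, binds α-actinin in the Z-disc.

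Promoter sequences are shown for Nrap and Fhl3, the members whose levels differed between groups, and for Fhl1 and Myom3, which varied together from mouse to mouse. They are the 250 bases before a transcription start in RefSeq (build GRCm38.p6), written 5′ to 3′ on the strand of the gene, with capitals marking an E-box, a CArG box or a MEF2 site. The windows are chr19:56390039-56390288 on the minus strand for Nrap, chr4:124700449-124700698 on the plus strand for Fhl3, chrX:56786277-56786526 on the plus strand for the more downstream of the starts listed for Fhl1, and chr4:135759465-135759714 on the plus strand for Myom3. In GENCODE M21 the Nrap, Fhl3 and Myom3 windows held no gene, and the Fhl1 window lay within Fhl1 but outside its exons.
Nrap: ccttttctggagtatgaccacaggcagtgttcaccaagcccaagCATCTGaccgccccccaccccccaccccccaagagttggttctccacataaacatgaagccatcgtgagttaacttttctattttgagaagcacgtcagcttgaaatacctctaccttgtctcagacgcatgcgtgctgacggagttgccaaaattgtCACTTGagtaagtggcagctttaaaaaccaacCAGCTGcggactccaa
Fhl3: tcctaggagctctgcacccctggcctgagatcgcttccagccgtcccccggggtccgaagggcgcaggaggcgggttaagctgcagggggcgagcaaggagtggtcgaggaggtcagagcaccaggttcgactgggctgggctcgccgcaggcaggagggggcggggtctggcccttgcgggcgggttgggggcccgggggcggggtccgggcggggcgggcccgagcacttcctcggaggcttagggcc
Fhl1: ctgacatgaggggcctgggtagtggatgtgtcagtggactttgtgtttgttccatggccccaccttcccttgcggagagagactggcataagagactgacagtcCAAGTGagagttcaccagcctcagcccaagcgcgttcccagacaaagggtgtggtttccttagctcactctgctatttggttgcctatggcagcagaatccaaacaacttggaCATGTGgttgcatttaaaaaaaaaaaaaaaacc
Myom3: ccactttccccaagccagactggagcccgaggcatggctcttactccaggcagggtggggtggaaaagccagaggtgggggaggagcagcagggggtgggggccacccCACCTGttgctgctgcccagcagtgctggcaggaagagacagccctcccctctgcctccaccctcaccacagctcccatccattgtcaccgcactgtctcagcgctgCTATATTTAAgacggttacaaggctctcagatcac
Both strands were searched for the E-box (CANNTG), the CArG box and the MEF2 site, the last of which, being rich in A and T like the core of the CArG box, can overlap it. A MEF2 site occurred in the promoters of Myom3 (CTATATTTAA, bases -35 to -26 from the start) and Ttn (CTAAATTTAG, bases -166 to -157), and in 2.92% of all 32851 promoters of the table. A CArG box occurred in those of Myom1 (CCATAAAAGG, bases -99 to -90), Ldb3 (CCATTTATGG, bases -109 to -100 from one of its starts and -35 to -26 from the other, in windows that overlap) and the other Fhl1 start (CCTAAAATGG, bases -102 to -93), and in 1.47% of all promoters. The Nrap window held 3 E-boxes and the Fhl3 window held none of these motifs, whereas 66.2% of all promoters held an E-box. Promoters of 7 of the 9 genes were matched, at 9 starts in all. These matches describe the letters of the windows and are not evidence of binding.

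Between 15319471 and 23498162 reads were counted on genes per mouse. The summed count of 11 fast fibre markers was at least 1838020 in every mouse, against at most 45334 for 10 slow fibre markers and 19452 for 6 adipocyte markers, so that the labelled tissue carried the markers of a fast muscle. On the first principal component of all genes tested, which held 38.1% of the variance, semaglutide mouse 13 scored -9.12, the other semaglutide-treated mice scored 31.8 to 52.5, and all mice of the other groups scored between -25.6 and -12.9. Values without mouse 13 are therefore given beside the members whose differences they change. The labels give 1 batch for all libraries.

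Levels of different genes were compared as normalized count per kilobase of merged exon, with the exon lengths taken from GENCODE M21. In vehicle-treated mice Nrap was at 6506 ± 1360 (SD, n = 5), Ldb3 at 6439 ± 295, Fhl1 at 5920 ± 1969 and Neb at 5215 ± 293. These 4 genes formed the top of the order and their neighbours overlapped from mouse to mouse. Myom1 at 3237 ± 265 and Myom2 at 3164 ± 194 followed and could not be told apart, with every mouse below the lowest Neb value of 4867. Ttn, the longest gene of the list with 116825 exon bases, was at 2387 ± 134, below Myom2 in every mouse and above Fhl3, which was at 1734 ± 215. Myom3 was the lowest at 340 ± 149. The order of genes under semaglutide began with Nrap at 12911 ± 4737 per kilobase. Together the 9 genes took 3.01% ± 0.091 (SD, n = 5) of all reads in vehicle-treated mice, 3.77% ± 0.14 (n = 5) under semaglutide and 3.14% ± 0.081 (n = 3) under semaglutide + ketone ester. Ttn alone took 1.44% ± 0.055 of reads under vehicle and 1.75% ± 0.079 under semaglutide. A share of reads scales every mouse to an equal total, and on that scale the median of all genes was itself 0.17 higher (log2) under semaglutide. Nrap alone went from 0.185% to 0.417% of reads. The rise in share is therefore not a rise of each member, and Ttn was not called on normalized counts in the test below.

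**Figure D1:**
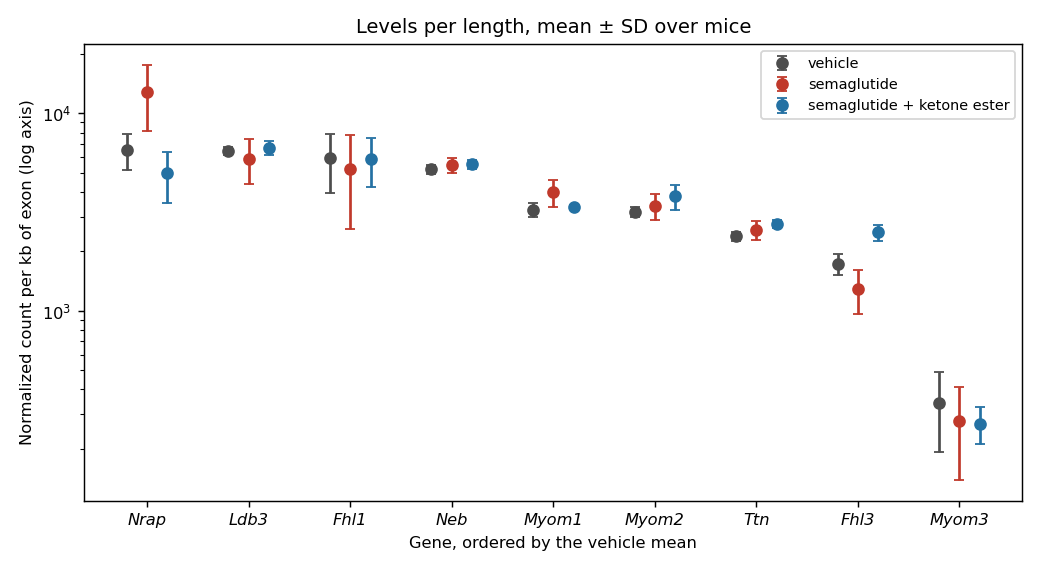
Normalized count per kilobase of merged exon (log axis) of the 9 genes, ordered by the vehicle mean. Points are means and bars SD over 5 vehicle-treated, 5 semaglutide-treated and 3 semaglutide + ketone ester-treated mice; Nrap stood highest under semaglutide at 12911 and Myom3 lowest in every group.

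Only 2 of the 9 genes, Nrap and Fhl3, passed the test in any comparison. Under semaglutide Nrap was higher and Fhl3 lower than under vehicle, and in semaglutide + ketone ester-treated mice Nrap was lower and Fhl3 higher than with semaglutide alone. The test was limma on log2(normalized count + 1) with all 3 groups in the model and p-values adjusted over all 12303 genes (threshold 0.05). Differences are given on this log2 scale, and the standard error (SE) is that of the model. In semaglutide against vehicle, 26.5% of all genes tested were called, 12.5% higher and 13.9% lower, so 2 called genes of 9 is close to the background. In semaglutide + ketone ester against semaglutide, 20.7% of all genes were called, 10.0% higher and 10.7% lower, again beside 2 called members. In semaglutide + ketone ester against vehicle, limma called 0 members and 0.366% of all genes, 0.0975% higher and 0.268% lower. Of the members, 1 had an unadjusted p under 0.05 there, beside 10.4% of all genes tested. There edgeR and DESeq2 on the recovered reads also called 0 members, beside 0.317% and 1.37% of all genes. With a weight for each mouse, limma called 1 member, Fhl3, beside 2.58% of all genes. The median difference of the 9 members was 0.06 in semaglutide against vehicle, 0.11 in semaglutide + ketone ester against semaglutide and 0.06 in semaglutide + ketone ester against vehicle, while the median over all genes tested was -0.0029, -0.00024 and -0.0059. The 3 comparisons share mice, so that a high or low semaglutide group enters the first and the second comparison with opposite sign. In bulk muscle, fewer cells of a type and less RNA per cell cannot be told apart.

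**Figure D2:**
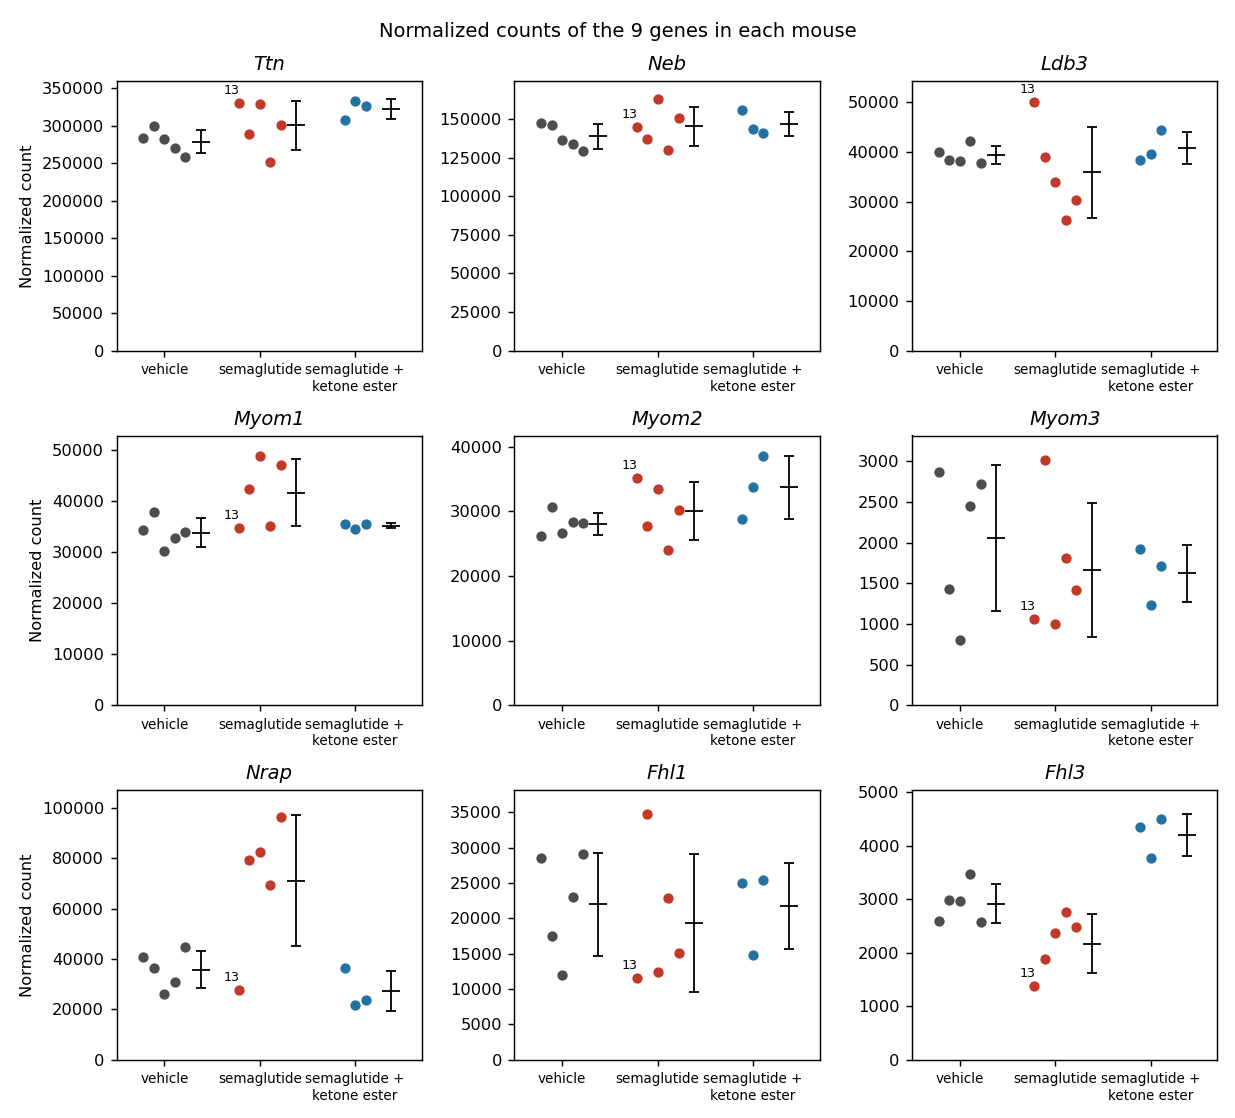
Normalized count of each of the 9 genes in every mouse, with group mean and SD as bars beside the points (n = 5, 5 and 3). The point of semaglutide mouse 13 is marked; its Nrap value of 27764 lay among those of vehicle-treated mice, and the other 4 semaglutide-treated mice lay above all vehicle-treated mice.

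Nrap, at chr19:56320035-56390037 on the minus strand in GENCODE M21 (GRCm38), had the largest difference of the 9 members in semaglutide against vehicle. Its normalized counts were 40967, 36445, 26009, 31037 and 44672 in vehicle-treated mice 1 to 5. They were 27764 in semaglutide mouse 13, and 79221, 82451, 69524 and 96539 in semaglutide mice 14 to 17. Values of 36423, 21854 and 23826 were found in semaglutide + ketone ester mice 19, 21 and 22. In 4 of 5 semaglutide-treated mice Nrap was above every mouse of the other groups, and mouse 13 lay within the vehicle range. The group means were 35826 ± 7489 (SD, n = 5), 71099.8 ± 26089 (n = 5) and 27368 ± 7904 (n = 3). Semaglutide exceeded vehicle by 0.90 ± 0.29 (SE) on the log2 scale, a ratio of means of 1.99 (limma, adjusted p = 0.033). Semaglutide + ketone ester was lower than semaglutide, with the difference at -1.30 ± 0.33 and a ratio of means of 0.385 (adjusted p = 0.014). Against vehicle the difference was -0.40 ± 0.33 and did not pass (adjusted p = 0.76). Without mouse 13 the differences were 1.21 (adjusted p = 0.00013) and -1.61 (adjusted p = 5.1e-05). The call against vehicle was lost when vehicle mouse 2, 3 or 4 or semaglutide mouse 14, 15, 16 or 17 was left out, with adjusted p between 0.057 and 0.088, and the call against semaglutide when mouse 21 (0.075) or mouse 22 (0.069) was left out. With no filter on low values the adjusted p against vehicle was 0.051, and with only the 2 groups compared in the model that between the semaglutide groups was 0.056. Calls between the semaglutide groups made up 20.7% of all genes tested as reported. The share was 10.3% without mouse 21, 9.33% without mouse 22 and 9.82% with only the 2 groups.

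Markers of attachment tissue and of other cells also differed between the groups. The summed normalized count of 6 tendon markers was 1277 to 6840 in vehicle-treated mice, 747 to 2721 under semaglutide and 3353 to 4187 under semaglutide + ketone ester, and 4 of the 6 were called lower under semaglutide. With the ketone ester added to semaglutide, 4 of the 6 were called higher and 1 lower. The lowest vehicle sum, in mouse 1, lay within the semaglutide range, and Nrap in that mouse was 40967. The highest vehicle sum was in mouse 5, where Nrap was 44672, the highest of the group. One of the 6 tendon markers, Kera, had a mean under 10 in the semaglutide group. The sum of 6 fibroblast markers was 5915 to 14436, 4883 to 7107 and 8280 to 14040 in the same order, with 5 of 6 called lower under semaglutide, and mouse 1 was again the lowest of the vehicle group and mouse 13 the highest of the semaglutide group. Sums of 3 satellite cell markers were 412 to 542, 595 to 1243 and 445 to 492, with mouse 13 the lowest of its group but above every vehicle-treated mouse. Only 1 of these 3 was called higher under semaglutide, and their median difference was 0.05, so the sum does not stand for all 3. The sum of 5 erythroid markers was 1356 to 2291, 50.5 to 3148 and 2849 to 5558, with mouse 13 the highest of its group. Of these 5, 0 were called under semaglutide against vehicle, and 5 were called higher with the ketone ester added to semaglutide. Of the fibre markers, 1 of 11 fast fibre genes was called higher and 3 lower under semaglutide, and 6 were called higher and 0 lower with the ketone ester added. Over all genes tested, 12.5% were called higher and 13.9% lower under semaglutide, and 10.0% and 10.7% with the ketone ester added. The part of these tissues in the difference in Nrap was not tested. Exons of Nrap share 268 bases with Habp2 on the opposite strand, which had a mean normalized count of 2.78.

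Fhl3, at chr4:124700701-124708611 on the plus strand, moved the other way. Its normalized counts were 2591, 2988, 2967, 3463 and 2580 in vehicle-treated mice 1 to 5. In semaglutide mice 13 to 17 they were 1369, 1878, 2373, 2760 and 2472, and in semaglutide + ketone ester mice 19, 21 and 22 they were 4354, 3764 and 4498. All 3 semaglutide + ketone ester-treated mice were above every other mouse, and only the highest semaglutide value, in mouse 16, reached the vehicle range. Such a separation of the mice of both groups was seen for 1 of 9 members in semaglutide + ketone ester against semaglutide (20.1% of all genes tested), for 2 of 9, Fhl3 and Ttn, against vehicle (11.3%), and for 0 of 9 in semaglutide against vehicle (14.7%). The means were 2918 ± 362 (SD, n = 5), 2170.3 ± 549 (n = 5) and 4205 ± 389 (n = 3). The difference between semaglutide + ketone ester and semaglutide was 0.99 ± 0.18 (SE) on the log2 scale, a ratio of means of 1.94 (limma, adjusted p = 0.0026). It was called under every alternative tried, including without each mouse in turn. Semaglutide fell by 0.46 relative to vehicle, with the difference at -0.46 ± 0.16 and a ratio of means of 0.744 (adjusted p = 0.046). This was a weak call. It was lost without any 1 of vehicle mice 1 to 5, of semaglutide mice 14 and 15 or of the ketone ester mice 19, 21 and 22 (adjusted p 0.053 to 0.11), and without the intensity trend of limma, where adjusted p was 0.067; the trend was adopted after the calls with and without it had been seen. It was also lost with edgeR (adjusted p = 0.060), TMM factors (0.054), quantile normalization (0.059), no filter on low values (0.060), only the 2 groups in the model (0.070), and columns rescaled to equal totals (-0.29, adjusted p = 0.24). It was kept with DESeq2 (-0.43, adjusted p = 0.036) and with a weight for each mouse (-0.36, adjusted p = 0.022). Without mouse 13 the difference was -0.30 (adjusted p = 0.049). Against vehicle, semaglutide + ketone ester was higher by 0.53 ± 0.18 and did not pass (adjusted p = 0.30).

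**Figure D3:**
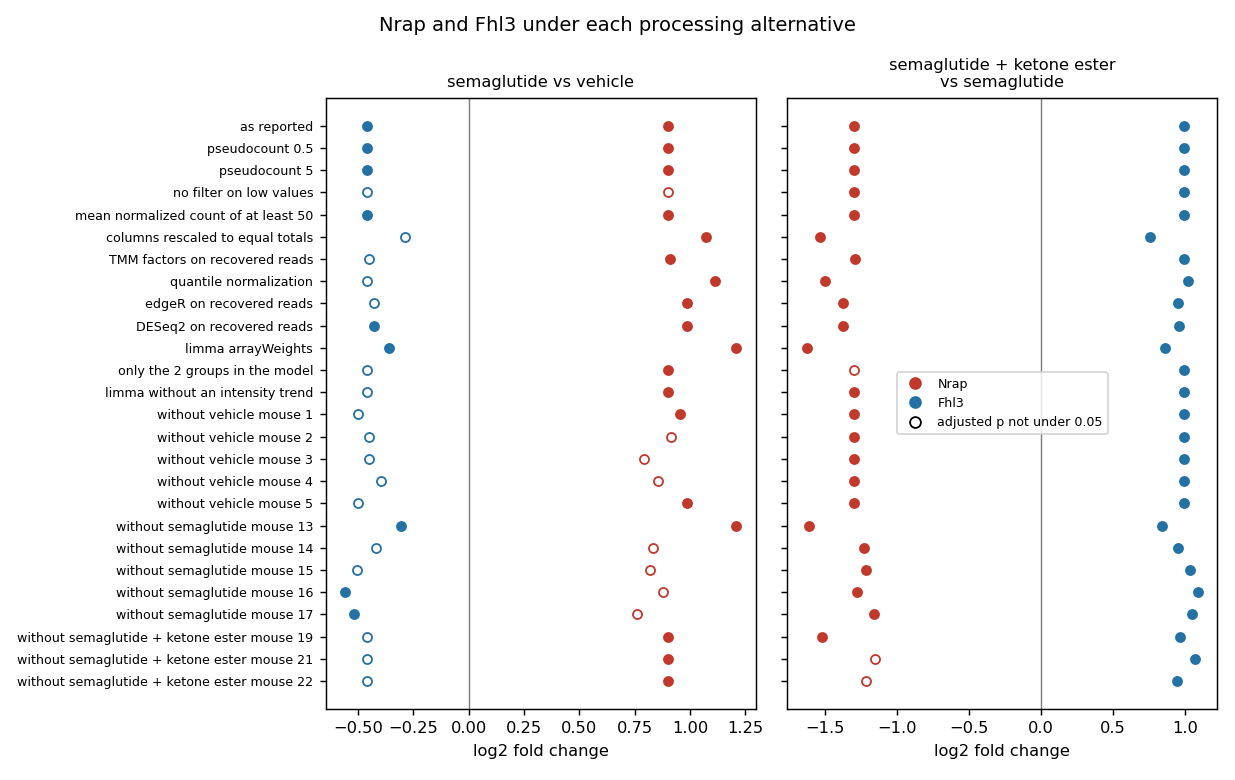
Log2 fold change of Nrap (red) and Fhl3 (blue) as reported and under each of 25 alternatives, for semaglutide against vehicle (left) and semaglutide + ketone ester against semaglutide (right). Filled points have an adjusted p under 0.05. Both genes kept their direction throughout, and the Fhl3 points on the right are all filled.

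Fhl1, the other four-and-a-half-LIM gene of the list, varied far more between mice than between groups. Its normalized counts were 28466, 17436, 11973, 23014 and 29055 in vehicle-treated mice 1 to 5. In semaglutide mice 13 to 17 they were 11551, 34738, 12404, 22910 and 15112. They were 25060, 14756 and 25382 in semaglutide + ketone ester mice 19, 21 and 22. The 3 groups overlapped, the highest value of a group being 2.43 times the lowest under vehicle and 3.01 times under semaglutide. The difference was -0.24 ± 0.31 (SE) on the log2 scale for semaglutide against vehicle (limma, adjusted p = 0.60), 0.26 ± 0.36 with the ketone ester added to semaglutide (adjusted p = 0.66) and 0.01 ± 0.36 against vehicle (adjusted p = 0.997). Without mouse 13 the first of these was -0.088 (adjusted p = 0.85) and the second 0.10 (adjusted p = 0.86).

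Titin and nebulin differed little. Ttn had a mean normalized count of 278893 ± 15604 (SD, n = 5) under vehicle, with mice between 258281 and 299489. Under semaglutide the mean was 300418 ± 32429 (n = 5), from 252011 in mouse 16 to 330306 in mouse 13. In the semaglutide + ketone ester group the 3 mice were at 307076, 332669 and 325735, all above every vehicle-treated mouse. The difference from vehicle was 0.10 ± 0.15 (SE) under semaglutide (limma, adjusted p = 0.64) and 0.21 ± 0.17 under semaglutide + ketone ester (adjusted p = 0.76), so that the separation of the latter group was not called. Neb was at 138621 ± 7801, 145126 ± 12605 and 146612 ± 7786 in the 3 groups, which overlapped. Its differences were 0.06 ± 0.12 for semaglutide against vehicle (adjusted p = 0.73) and 0.02 ± 0.14 with the ketone ester added to semaglutide (adjusted p = 0.94). These small differences depended on the scaling. With columns rescaled to equal totals, which moved the median of all genes by 0.17 in semaglutide against vehicle, Ttn was 0.28 higher under semaglutide (adjusted p = 0.047), a value that includes this shift. With quantile normalization, where the median of all genes was 0.0284, Ttn was 0.48 higher under semaglutide (adjusted p = 0.0068). The same normalization gave Neb a called difference of the opposite sign between the semaglutide groups, -0.50 (adjusted p = 0.011). Without mouse 13 the difference of Ttn from vehicle under semaglutide was 0.066 (adjusted p = 0.77).

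Ldb3 was steady in vehicle-treated mice, between 37834 and 42152, and under semaglutide + ketone ester, between 38357 and 44499. Under semaglutide it was 50003 in mouse 13 and 39054, 33898, 26281 and 30346 in mice 14 to 17. Mouse 13 was thus the highest and 3 of the other 4 were below every vehicle-treated mouse, a spread of 25.5% of the mean against 4.58% under vehicle. The difference from vehicle was -0.16 ± 0.15 (SE) on the log2 scale (limma, adjusted p = 0.44). Without mouse 13 it was -0.29 and still not called (adjusted p = 0.056). Semaglutide + ketone ester differed from semaglutide by 0.22 ± 0.17 (adjusted p = 0.39), and by 0.34 without mouse 13 (adjusted p = 0.054).

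**Figure D4:**
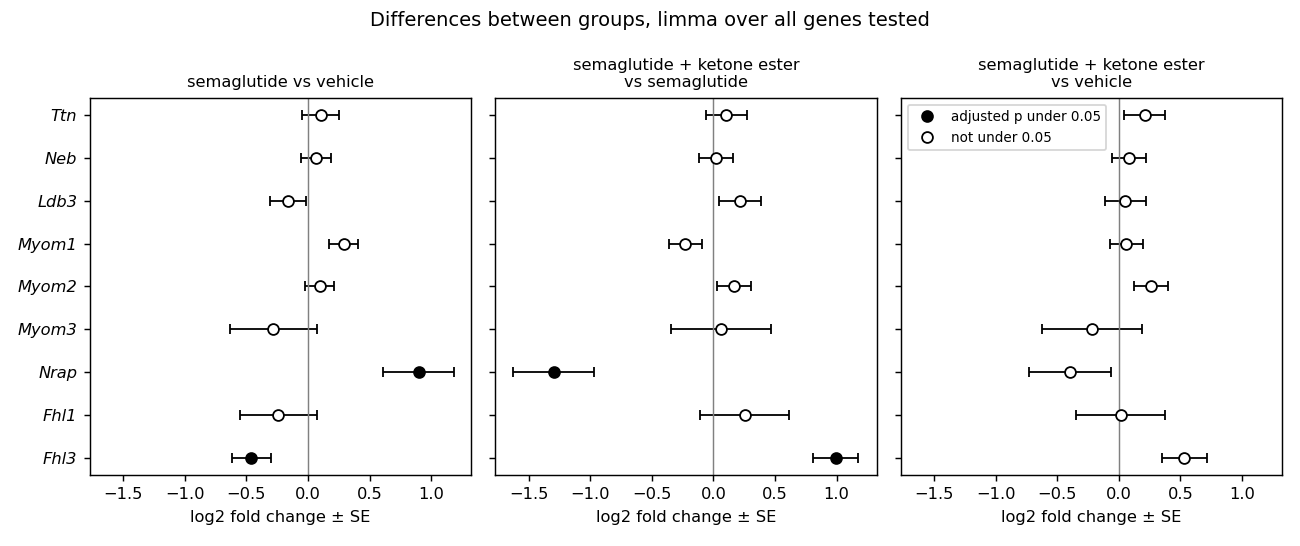
Difference between groups for each of the 9 genes on the log2(normalized count + 1) scale, with SE from limma; filled points have an adjusted p under 0.05. Nrap and Fhl3 were called in the first 2 panels, in opposite directions, and no gene in the last.

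Among the myomesins, Myom1 had the lowest p in semaglutide against vehicle but was not called. It was 34292, 37891, 30238, 32834 and 34022 in vehicle-treated mice 1 to 5. Under semaglutide it was 34833, 42358, 48957, 35242 and 47113 in mice 13 to 17, so that mice 14, 15 and 17 were above every vehicle-treated mouse. The 3 semaglutide + ketone ester-treated mice lay between 34620.3 and 35601. The difference between semaglutide and vehicle was 0.29 ± 0.12 (SE) on the log2 scale with an adjusted p of 0.078 (limma), and it was 0.35 without mouse 13 (adjusted p = 0.021) and 0.35 without mouse 16 (adjusted p = 0.032). With DESeq2 it was 0.30 (adjusted p = 0.023), and with a weight for each mouse 0.41 (adjusted p = 0.0037). Of all genes tested, 40.5% were called with that weight and 37.5% without mouse 13, beside 26.5% as reported. With columns rescaled to equal totals the difference of Myom1 was 0.46 (adjusted p = 0.0028), and with quantile normalization 0.40 (adjusted p = 0.011). Between the semaglutide groups Myom1 differed by -0.23 ± 0.13 (adjusted p = 0.24). That difference was called with equal totals (-0.47, adjusted p = 0.0062), quantile normalization (-0.42, adjusted p = 0.021) and a weight for each mouse (-0.35, adjusted p = 0.022). The weighted fit called 36.1% of all genes tested between the semaglutide groups, beside 20.7% as reported. The equal-totals values include the shift of all genes. Exons of Myom1 share 207 bases, 1.98% of its exon length, with Myl12a on the opposite strand. Myom2, the myomesin of fast fibres, was at 28014 ± 1719 (SD, n = 5), 30127 ± 4489 (n = 5) and 33738 ± 4895 (n = 3), with differences of 0.09 ± 0.12 for semaglutide against vehicle (adjusted p = 0.60) and 0.26 ± 0.14 for the ketone ester group against vehicle (adjusted p = 0.56). Myom3 was between 802 and 2871 under vehicle, between 1001 and 3020.3 under semaglutide and between 1236 and 1920.2 under semaglutide + ketone ester. The groups overlapped and no difference was called (adjusted p of at least 0.59, limma). Without mouse 13 the differences from vehicle under semaglutide were 0.034 for Myom2 and -0.15 for Myom3, and Myom3 differed between the semaglutide groups by -0.067 in place of 0.063.

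The ratio of 2 members within a mouse does not depend on how that library was scaled. The ratio of Ttn to Neb was 2.01 ± 0.06 (SD, n = 5) under vehicle, 2.07 ± 0.13 (n = 5) under semaglutide and 2.20 ± 0.20 (n = 3) under semaglutide + ketone ester. That of Myom2 to Myom1 was 0.830 ± 0.046, 0.734 ± 0.156 and 0.958 ± 0.136. Myom2 was thus below Myom1 in every vehicle-treated mouse, at most 0.882 of it. In semaglutide mouse 13 the ratio was 1.01, and in the other 4 semaglutide-treated mice between 0.640 and 0.685, below the vehicle range of 0.765 to 0.882. The difference in log2 ratio between semaglutide and vehicle was -0.20, and -0.32 without mouse 13. The ratio of Fhl3 to Fhl1 was 0.15 ± 0.066, 0.130 ± 0.052 and 0.202 ± 0.046, and that of Myom3 to Myom1 was 0.061 ± 0.026, 0.041 ± 0.020 and 0.046 ± 0.009. None of the 12 differences in log2 ratio passed a two-sided exact permutation test adjusted over the 12 tests, with the lowest adjusted p at 0.39. The smallest p these designs allow is 0.0079 for 5 against 5 mice and 0.018 for 3 against 5. A single ratio at either value would, on its own, still not pass after adjustment over the 12 tests. The lack of a call for any 1 ratio is therefore not informative.

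Fhl1 and Myom3 had similar profiles across mice, and in vehicle-treated and semaglutide-treated mice Myom3 followed the order of slow fibre markers. Of all genes tested, the gene with the log2 profile nearest to Myom3 over the 13 mice was Fhl1 (root mean square difference 0.195, with Myom3 itself varying by 0.593 around its mean), followed by Myoz2 (0.223), a Z-disc protein of slow fibres, and Lmcd1 (0.270), a LIM and cysteine-rich domain protein. For Fhl1 the nearest were Mybpc1 (0.168), the slow myosin-binding protein C, Myom3 (0.195) and Lmcd1 (0.204). The summed count of 10 slow fibre markers ranged from 11585 to 45334 in vehicle-treated mice, from 11017 to 30844 under semaglutide and from 16733 to 30471 under semaglutide + ketone ester. Its order of mice within the vehicle group, from mouse 3 up through 2, 4 and 5 to mouse 1, was that of Myom3, and so was its order within the semaglutide group, from mouse 15 up through 13, 17 and 16 to mouse 14. In the semaglutide + ketone ester group the order differed, with mouse 19 lowest for the markers and highest for Myom3. Myh7, the slow myosin heavy chain, was 14800.4 in vehicle mouse 1 and 3035 in vehicle mouse 3. Myh2, listed with the fast fibre markers, was also lowest in vehicle mouse 3 (33262) and was highest in vehicle mouse 5 (87882), as was Fhl1. With the ketone ester added it rose from mouse 21 (45658) through mouse 19 (52676.5) to mouse 22 (76850), the order of Fhl1. Its full order in the vehicle and semaglutide groups was that of neither Fhl1 nor Myom3. Whether the piece of muscle sampled held more or fewer slow fibres was not tested.

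**Figure D5:**
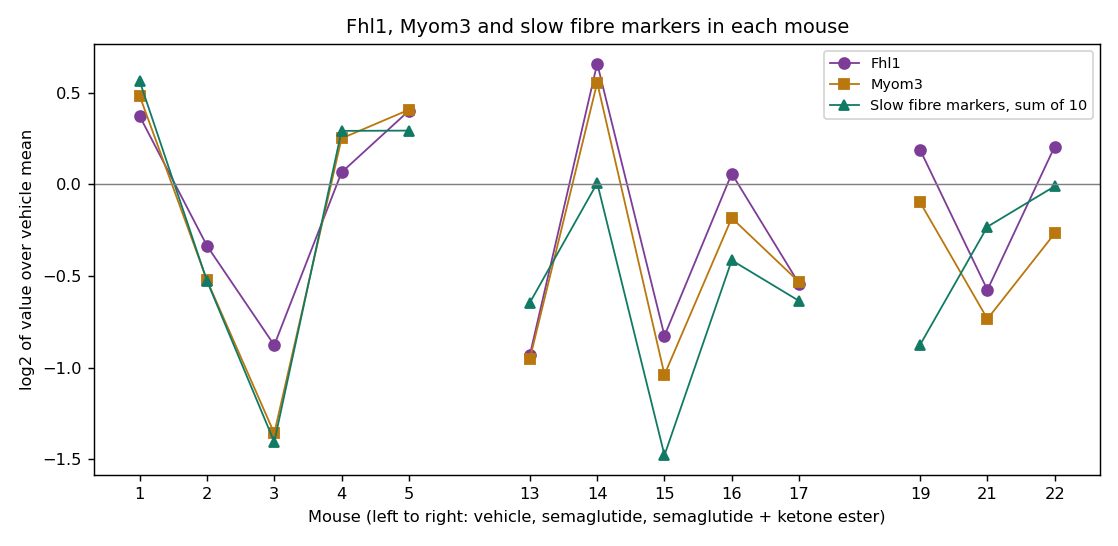
Fhl1, Myom3 and the sum of 10 slow fibre markers in each mouse, as log2 of the value over the vehicle mean; lines join mice of a group and have no time order. The 3 measures were low in vehicle mouse 3 and semaglutide mouse 15 and high in vehicle mice 1 and 5, and in mouse 19 the markers were lower than both genes.

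Likeness of profile was also taken for the other members. Nearest to Nrap, which varied by 0.703 around its mean, were Jun (root mean square difference 0.197), a subunit of the transcription factor AP-1, Cnksr1 (0.201), a scaffold of Ras signalling, and Ugp2 (0.204), an enzyme of glycogen synthesis. The nearest to Fhl3 were Zfp612 (0.218), a zinc finger gene, Slc30a1 (0.223), a zinc exporter, and Sat2 (0.234). Myom2 was nearest to Ttn (0.0986). The nearest genes of Ttn were Tomm7 (0.0515), Rcsd1 and Atg16l1, those of Neb were Adh5 (0.0566), Prpf18 and Rexo2, those of Myom1 were Stx8 (0.0726), Tor1aip1 and Ginm1, and those of Ldb3 were Cyhr1 (0.066), Coa3 and Armcx3. Members that vary little, such as Neb with 0.0943 around its mean, have many near neighbours.

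Of 22 partners of titin and nebulin in the thin filament and at its ends, 1 was called higher and 3 lower under semaglutide than under vehicle, with a median difference of -0.30, and 7 were called higher and 0 lower under semaglutide + ketone ester than with semaglutide alone, with a median of 0.25. Over all genes tested, 12.5% were called higher and 13.9% lower in the first comparison, and 10.0% and 10.7% in the second. These shares are the background for the lists below as well. Tpm1, a tropomyosin that winds along actin, had normalized counts of 281990 ± 26953 (SD, n = 5), 141232 ± 60369.6 (n = 5) and 345246 ± 41089 (n = 3), a difference of -1.09 ± 0.24 (SE) under semaglutide (limma, adjusted p = 0.0050) and of 1.38 ± 0.28 between the semaglutide groups (adjusted p = 0.0039). Actn3, the α-actinin of fast fibres to which Z-disc proteins bind, rose by 0.74 ± 0.17 under semaglutide (adjusted p = 0.0067). Acta2, the actin of smooth muscle, fell by 0.56 under semaglutide (adjusted p = 0.013). Actc1, cardiac α-actin, was at 1337 ± 347 under vehicle and 842 ± 1077 under semaglutide, and at 30025 ± 24287 under semaglutide + ketone ester, where the mice ranged from 2910.1 to 49782. Its difference of 5.20 ± 0.89 between the semaglutide groups was called (adjusted p = 0.0017).

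Of 21 M-band and titin-linked genes, 1 was called higher and 1 lower under semaglutide than under vehicle (median -0.06), and 5 higher and 1 lower under semaglutide + ketone ester than with semaglutide alone (median 0.02). The share of all genes called was 26.5% and 20.7% in these comparisons. Ankrd1, a titin-binding ankyrin repeat protein of the stretch response, rose from 290.0 ± 118 (SD, n = 5) to 865 ± 504 (n = 5), by 1.44 ± 0.42 (SE) on the log2 scale (limma, adjusted p = 0.023). Trim55, a ubiquitin ligase at the M-band, fell by 0.64 (adjusted p = 0.021). Mybph, a myosin-binding protein, was at 1818 ± 1440.1 under semaglutide and 6915 ± 1134 under semaglutide + ketone ester (difference 2.26 ± 0.46, adjusted p = 0.0042). Igfn1, an immunoglobulin and fibronectin domain protein of the Z-disc region, was 733 ± 221, 1709.9 ± 870.1 and 122 ± 74.9 in the 3 groups. It was lower under semaglutide + ketone ester than with semaglutide alone (-3.77 ± 0.45, adjusted p = 0.00034) and than under vehicle (-2.70 ± 0.45, adjusted p = 0.023). Of these 21 genes it was the only one called in semaglutide + ketone ester against vehicle.

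Of 26 other Z-disc genes, 5 were called higher and 2 lower under semaglutide (median 0.00), and 3 higher and 4 lower under semaglutide + ketone ester than with semaglutide alone (median 0.01). Called genes made up 26.5% and 20.7% of all genes tested in the same comparisons. Myoz3, a calsarcin of fast fibres, was 4799 ± 389 (SD, n = 5), 1426 ± 1337 (n = 5) and 5539 ± 437 (n = 3). It fell by 2.11 under semaglutide (SE 0.35, limma, adjusted p = 0.00092) and was 2.32 ± 0.41 higher under semaglutide + ketone ester than with semaglutide alone (adjusted p = 0.0020). Mypn, or myopalladin, which binds nebulin and α-actinin, rose by 0.48 ± 0.09 (adjusted p = 0.0014). Nexn, an actin-binding protein of the Z-disc, fell by 0.59 (adjusted p = 0.0086). Cap2, an actin-regulating protein, rose by 0.36 ± 0.10 (adjusted p = 0.014) and was lower by -0.51 ± 0.11 under semaglutide + ketone ester than with semaglutide alone (adjusted p = 0.0057). Pdlim7, a PDZ and LIM protein like Ldb3, was 1.05 ± 0.26 higher under semaglutide + ketone ester than with semaglutide alone (adjusted p = 0.013).

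Relatives of Fhl1, Fhl3 and Nrap by their LIM domains were called in both directions. So were all genes tested, of which 26.5% were called under semaglutide and 20.7% with the ketone ester added. Of 15 such genes tested of 16 listed, 2 were called higher and 2 lower under semaglutide, and 1 higher and 1 lower under semaglutide + ketone ester than with semaglutide alone. Fhl2, the heart-enriched family member, was low at 49.5 ± 18.1 (SD, n = 5), 21.9 ± 7.69 (n = 5) and 34.2 ± 6.70 (n = 3) and fell by 1.14 under semaglutide (limma, adjusted p = 0.013). Pdlim3, or ALP, rose by 0.66 ± 0.18 (SE, adjusted p = 0.014). Csrp1 was lower under semaglutide + ketone ester than with semaglutide alone, at -0.32 ± 0.09 (adjusted p = 0.027).

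Of 15 chaperones and adaptors of myofibril assembly, 1 was called higher and 1 lower under semaglutide, and 4 higher and 2 lower under semaglutide + ketone ester than with semaglutide alone. Klhl31, a kelch adaptor of muscle, fell by 0.42 under semaglutide (limma, adjusted p = 0.039) and was 0.88 ± 0.16 (SE) higher under semaglutide + ketone ester (adjusted p = 0.0026). Hsp90ab1, a constitutive HSP90 chaperone, rose by 0.53 ± 0.16 under semaglutide (adjusted p = 0.024). Kbtbd13, a kelch protein whose mutation causes nemaline myopathy, was 0.83 ± 0.18 higher under semaglutide + ketone ester than with semaglutide alone (adjusted p = 0.0064). Of 19 muscle transcription and splicing factors tested of 20 listed, 3 were called higher and 1 lower under semaglutide, and 1 higher and 3 lower under semaglutide + ketone ester than with semaglutide alone. For the chaperone list and this one, the background was 26.5% and 20.7% of all genes tested. Rbm20, the splicing factor of titin, was 1687 ± 165 (SD, n = 5), 2687 ± 738 (n = 5) and 1299 ± 125 (n = 3). It rose by 0.63 ± 0.16 under semaglutide (adjusted p = 0.010) and was lower by -1.01 ± 0.18 under semaglutide + ketone ester than with semaglutide alone (adjusted p = 0.0022). Mef2c, a factor that binds the MEF2 site, fell by 0.90 under semaglutide (adjusted p = 0.0053). Myod1, which binds E-boxes, was 180 ± 36.1, 568.3 ± 220 and 309 ± 95.0 and rose by 1.61 ± 0.23 under semaglutide (adjusted p = 0.00031), and Eya4 rose by 0.68 ± 0.15 (adjusted p = 0.0051).

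At the muscle-tendon junction and costamere, where Nrap and titin-linked force is passed to the matrix, 1 of 18 genes was called higher and 5 lower under semaglutide, and 2 higher and 0 lower under semaglutide + ketone ester than with semaglutide alone. The latter counts were unstable, at 1 to 4 higher and 0 to 4 lower over 25 alternatives (4 and 2 without mouse 13), and those of semaglutide against vehicle ranged from 0 to 6 higher and 1 to 6 lower. As reported, 26.5% of all genes tested were called under semaglutide and 20.7% with the ketone ester added. Col22a1, a collagen of the muscle-tendon junction, was 458 ± 53.4 (SD, n = 5), 189 ± 78.3 (n = 5) and 481 ± 103 (n = 3), a fall of 1.36 under semaglutide (limma, adjusted p = 0.00070) with a difference of 1.41 ± 0.25 (SE) between the semaglutide groups (adjusted p = 0.0021). Vcl, or vinculin, fell by 0.43 (adjusted p = 0.015). Transcripts of other very large proteins, listed to set beside Ttn and Neb, gave 3 of 25 called higher and 3 lower under semaglutide, and 0 higher and 4 lower under semaglutide + ketone ester than with semaglutide alone, beside the same shares of all genes tested. Syne1, the giant nesprin of the nuclear envelope, was 1795 ± 178, 4612 ± 1961 and 1525 ± 537 and rose by 1.22 ± 0.29 under semaglutide (adjusted p = 0.0077). Vps13d, a lipid transfer protein, rose by 0.47 ± 0.09 (adjusted p = 0.0017), and Macf1, a cytoskeletal linker, fell by 0.38 (adjusted p = 0.0046). Against vehicle, semaglutide + ketone ester gave 1 called gene in the M-band list, Igfn1, and 1 in the chaperone list, Hsp90aa1, which was chosen after its value was seen (-0.88 ± 0.16, adjusted p = 0.026), and 0 in the other 6 lists. Without mouse 13 more genes of the lists were called in semaglutide against vehicle, among them 1 higher and 7 lower of the thin filament list, 5 and 5 of the M-band list, and 7 and 5 of the Z-disc list. The rise was general, since 37.5% of all genes tested were then called in this comparison.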

How the data were processed

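RNA was sequenced from the gastrocnemius of 13 mice. The authors prepared stranded mRNA libraries and aligned paired-end reads to mm10 with DRAGEN. DESeq2 is named in the submitters' processing notes, and the gene counter and annotation are not given in the sources used here. The deposited signal was a normalized count per gene, that is, reads divided by a factor for each mouse, and whole reads were recovered for 100% of the values within a tolerance of 0.01. Read totals were 15319471 to 23498162 per mouse, which limits precision by counting error only slightly for these abundant genes.

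Genes with a mean normalized count of at least 10 were tested with limma 3.58.1 (R 4.3.3) on log2(normalized count + 1), with 3 groups in 1 model, an intensity trend in the moderated variances and Benjamini-Hochberg adjustment over all 12303 genes. The planned test did not say whether the moderated variances should carry this trend. The first fit had none, and the trend was adopted after the calls of both fits had been seen, to match earlier processing of these files. It changed 1 call of a member, Fhl3 in semaglutide against vehicle, which limma without the trend did not call, and without it 3084, 2262 and 29 genes were called in the 3 comparisons in place of 3255, 2546 and 45. The same differences were computed with edgeR 4.0.16 and DESeq2 1.42.0 on the recovered reads, and with other pseudocounts, filters, scalings and sets of mice. In semaglutide against vehicle edgeR called 3176 genes and DESeq2 3493. They called 2495 and 2858 in semaglutide + ketone ester against semaglutide, and 39 and 168 in semaglutide + ketone ester against vehicle. Fold changes on the log2(value + 1) scale understate the change of low genes. Ratios were tested by exact permutation in Python 3.11.15. Exon lengths from GENCODE M21 were used for levels per kilobase in place of coding lengths, a choice made after the data were seen. The scripts were tested on simulated data. The labels do not say whether mice shared cages or litters. The limma p-values set a difference of group means against the spread between these mice, pooled over the 3 groups and moderated over all genes tested.

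The members and gene lists were chosen with earlier results of these data known. Named genes were all 9 members, up to 3 called genes per list with the smallest p in semaglutide against vehicle and up to 2 in semaglutide + ketone ester against semaglutide, and the 3 genes nearest each member by root mean square difference. 1 gene that this rule names is not reported here. No pair of libraries of a group agreed within counting noise.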

Additional observations from a re-analysis of the deposited data

Results flagged for a closer look

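In the groups of 5 mice, the members, the ratios and the marker sums were searched for a mouse whose gap to the nearest of the others was too large a part of the range of its group by Dixon's test. Of 50 such checks 5 were flagged, where chance alone gives about 1 in 20, or 2.5. Among results on the members, the ratio of Myom2 to Myom1 in semaglutide mouse 13 was 1.01, and the next value of the group was 0.685. The other flags concern marker sums. The adipocyte sum was 7020.0 in vehicle mouse 5 against a next value of 3623, and 19450.0 in semaglutide mouse 16 against 3785. The macrophage and leukocyte sum was 863 in semaglutide mouse 16 against 280.5, and the Schwann cell sum was 1968 in vehicle mouse 5 against 882. Mouse 16 had the lowest Ttn, Neb, Myom2 and Ldb3 values of its group, at 252011, 130181, 23988 and 26281, and the highest Fhl3 value, at 2760. Vehicle mouse 5 had the highest Nrap and Fhl1 values of its group, at 44672 and 29055. It also had the lowest Ttn, Neb, Ldb3 and Fhl3 values of that group, at 258281, 129376, 37834 and 2580. The part of the other tissues in these values was not tested.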

How the results depend on the processing

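No paired analysis was possible because the mouse numbers of the labels are not shared between groups. Of 675 log2 fold changes of the members under an alternative, 602 kept their direction and their side of the threshold, 28 lost the call, 14 gained one and 31 changed sign. None of those that changed sign was called as reported, and Nrap and Fhl3 kept their directions throughout. The intensity trend was an alternative chosen after seeing the data.

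In semaglutide against vehicle, where 2 members were called, 0 were called with no filter on low values, 4 with columns rescaled to equal totals, and 1 each with TMM factors, edgeR, only the 2 groups in the model, and limma without an intensity trend. The shares of all genes tested that were called were 17.7%, 35.2%, 27.2%, 25.8%, 22.7% and 25.1% in the same order, beside 26.5% as reported. Leaving out 1 mouse gave 0 to 3 members and between 19.3% and 37.5% of all genes, the highest of both without mouse 13. In semaglutide + ketone ester against semaglutide, again 2 as reported, 4 were called with quantile normalization (21.1% of all genes) and 1 with only the 2 groups (9.82%), beside 20.7% as reported. Leaving out 1 mouse gave 1 to 2 members and between 9.33% and 33.5% of all genes. The count of 1 came without mouse 21 (10.3% of all genes) or mouse 22 (9.33%). Against vehicle, 0 as reported, 1 was called with a weight for each mouse (2.58% of all genes) and 1 with only the 2 groups (2.18%), Fhl3 in both. As reported the share of all genes was 0.366%.

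Rescaling columns to equal totals moved the median of all genes by 0.17 in semaglutide against vehicle, with 3351 genes then higher and 985 lower in place of 1540 and 1715, and by -0.235 in semaglutide + ketone ester against semaglutide, with 637 higher and 3715 lower in place of 1234 and 1312. Under it Ldb3 changed sign in semaglutide against vehicle (0.0093). In semaglutide + ketone ester against semaglutide it gave Ttn -0.13, Neb -0.22, Myom2 -0.071, Myom3 -0.17 and Ldb3 -0.021, and against vehicle Myom1 -0.0023, Fhl1 -0.049 and Ldb3 -0.011. Quantile normalization gave Ttn -0.34 and Neb -0.50 (called, adjusted p = 0.011) against semaglutide, and Neb -0.25, Myom1 -0.021 and Ldb3 -0.056 against vehicle. With a weight for each mouse Neb was -0.038 against semaglutide and Fhl1 -0.0087 against vehicle. Myom3 against semaglutide was -0.036 with edgeR and -0.037 with DESeq2, and Fhl1 against vehicle was -0.017 with both. Leaving out 1 mouse, the ranges that crossed 0 were -0.026 to 0.061 for Neb and -0.089 to 0.31 for Myom3 against semaglutide, -0.19 to 0.27 for Fhl1 and -0.012 to 0.095 for Ldb3 against vehicle, and -0.39 to 0.066 for the log2 ratio of Fhl3 to Fhl1 in semaglutide against vehicle. The number of genes called in a pathway list moved by over 1.5 times most often for the junction and costamere list between the semaglutide groups, in 17 of 25 alternatives, and for the chaperone list in semaglutide against vehicle, in 14. The cause of these changes was not tested.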
